A study of Mus musculus with 2 samples.

Results

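The miRNAs in and near the maternal transcripts Meg3 and Rian of the imprinted Dlk1-Dio3 region were examined in the small RNA of J1 mouse ES cells. They come from 9 hairpins on chromosome 12, Mir770, Mir673, Mir493, Mir337, Mir540, Mir665, Mir341, Mir1188 and Mir370, which were chosen by name as those outside the neighbouring anti-Rtl1 and Mirg groups. A tag, which is a distinct read sequence, was counted for them where it matched a hairpin of the GENCODE vM21 annotation without mismatch. These 9 of 1174 hairpins held 195 of the 8580 distinct tags that matched any hairpin, 9602 reads with DMSO and 4340 reads with AICAR. Of the 195 tags, 174 were found with DMSO and 139 with AICAR, and 0 matched another hairpin. The tags fell on 18 of the 1146 hairpin arms with reads, and 13 of these 18 were among the 508 arms that reached 1 read per 1000000 clean reads (RPM) in at least 1 library. The other 5 arms had 28 reads with DMSO and 22 with AICAR in all and are given by their reads only.

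J1 is a mouse embryonic stem cell line, grown here on gelatin in serum replacement medium with LIF, the cytokine that keeps mouse ES cells undifferentiated. The cells received 1 mM AICAR, which enters cells and activates the energy sensor AMPK, or an equal volume of the solvent DMSO (0 mM AICAR) for 24 h. There was 1 library per condition, so no difference below has a replicate check, and each test compares these libraries, not the conditions. The control library carries the title J1_U and the treatment label DMSO, and it is called the DMSO library here.

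The Dlk1-Dio3 region is an imprinted domain. The paternal chromosome expresses protein-coding genes such as Dlk1, Rtl1 and Dio3, and the maternal chromosome expresses the long non-coding RNAs Meg3, Rian and Mirg together with miRNAs and small nucleolar RNAs that lie along them. In mouse pluripotent cells, activity of the maternal transcripts is known to mark lines with full developmental potential. A miRNA is cut from its hairpin by Drosha and Dicer, either arm can give a mature miRNA (5p or 3p), and bases 2 to 8 from its 5′ end, the seed, set most of its pairing with targets. Terminal nucleotidyl transferases can add A or U to its 3′ end, and such added bases do not match the hairpin.

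The mature sequence of the more abundant arm of each hairpin follows with its seed in capitals, since the seeds tell these miRNAs apart and the 3′ ends matter for the counts that follow. Sequences and positions are those of RefSeq on GRCm38.p6, and all lie on the plus strand. The most-read form in these libraries can differ from them. The printed sequence of miR-493-5p had 0 reads with DMSO and 0 with AICAR, and that of miR-665-3p had 6 and 1. The most-read untailed tag of miR-770-3p began at hairpin base 54, not at the printed start, base 53.
miR-770-3p, chr12:109563744-109563765: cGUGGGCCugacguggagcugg
miR-673-5p, chr12:109572004-109572025: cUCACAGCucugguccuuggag
miR-493-5p, chr12:109580243-109580261: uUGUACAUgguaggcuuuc
miR-337-5p, chr12:109585818-109585839: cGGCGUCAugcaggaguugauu
miR-540-3p, chr12:109586122-109586141: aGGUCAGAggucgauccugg
miR-665-3p, chr12:109586368-109586387: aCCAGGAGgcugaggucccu
miR-341-3p, chr12:109611556-109611576: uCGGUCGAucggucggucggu
miR-1188-5p, chr12:109611841-109611861: uGGUGUGAgguugggccagga
miR-370-3p, chr12:109618305-109618326: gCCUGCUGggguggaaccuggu

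All 18 mature sequences of the 9 hairpins were in the RefSeq table, and no seed was shared among them. The seeds of 15 were found in no other of the 1738 mouse mature sequences. Of the other 3 seeds, that of miR-673-5p was shared with miR-6985-3p, that of miR-540-3p with miR-6915-5p, and that of miR-370-5p with miR-1193-3p. The sequence of miR-341-3p is built from repeats of the 4 bases cggu and cgau, so a shift of its 5′ end by 4 bases gives a similar tag with another seed.

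The 9 hairpins spanned 54645 bases between Mir770 and Mir370. Mir770 lay in an exon of 1 of the 11 Meg3 transcripts. Mir673, which started 263 bases past the annotated end of Meg3, and Mir493, Mir540 and Mir665 overlapped no other annotated gene, and Mir337 overlapped only Mir3544 on the opposite strand. Mir337, Mir540 and Mir665 stood close together, with gaps of 194 and 167 bases. Mir341, Mir1188 and Mir370 lay within Rian, in an exon of 0 of its 20 transcripts. Apart from the genes that hold the hairpins and other miRNA genes, none of the tags counted for the 18 arms matched an annotated transcript.

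The DMSO library held 18870345 clean reads and the AICAR library 21091226, and 1 read was worth 0.053 and 0.0474 RPM. Hairpins took 11.6% of the clean reads with DMSO and 15.7% with AICAR. The ES cell hairpins of the Mir290 and Mir302 families, 9 of the 10 names listed for them, summed to 31117 RPM with DMSO and 53946 with AICAR. The labelled cell type thus showed its defining miRNAs in both libraries. This is 1 sum over both families, and the paper lists both arms of miR-302a as lower with AICAR. Hairpins of mesenchymal cells (4 of 5 with reads, Mir214 at 0) went from 202 to 190 RPM, of neural cells (7 of 7) from 1255 to 1425, of muscle (4 of 4) from 161 to 205, of blood (3 of 4, Mir223 at 0) from 17.1 to 16.1, the liver hairpin Mir122 from 2.91 to 25.4, and the let-7 hairpins, which are high in differentiated cells, from 9927 to 16224. The part of these shifts in the results below was not tested. In such bulk samples, fewer cells of a type and less RNA per cell cannot be told apart.

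Reads that matched the hairpins were fewer with AICAR for most of the group. The 9 hairpins together held 509 RPM with DMSO and 206 RPM with AICAR, a fold change of 0.404 (95% exact binomial interval 0.390 to 0.419, counting error only). Without Mir341 the fold was 0.543 (0.519 to 0.568), so that 1 hairpin moved the sum past the 0.5 used as threshold. Of the 13 arms tested, 7 were called lower with AICAR (fold change at most 0.5 and p at most 0.01 by Fisher's exact test, two-sided) and 0 higher. The background was 9.45% of the 508 arms called lower and 11% called higher. The fold change was below 1 in 12 of the 13, and their median was 0.481 (log2 of -1.06), whereas the median of all 508 arms was 1.10 (log2 of 0.13). By Fisher's exact test at any fold, p was at most 0.01 for 9 of the 13 and for 304 of the 508.

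**Figure D1:**
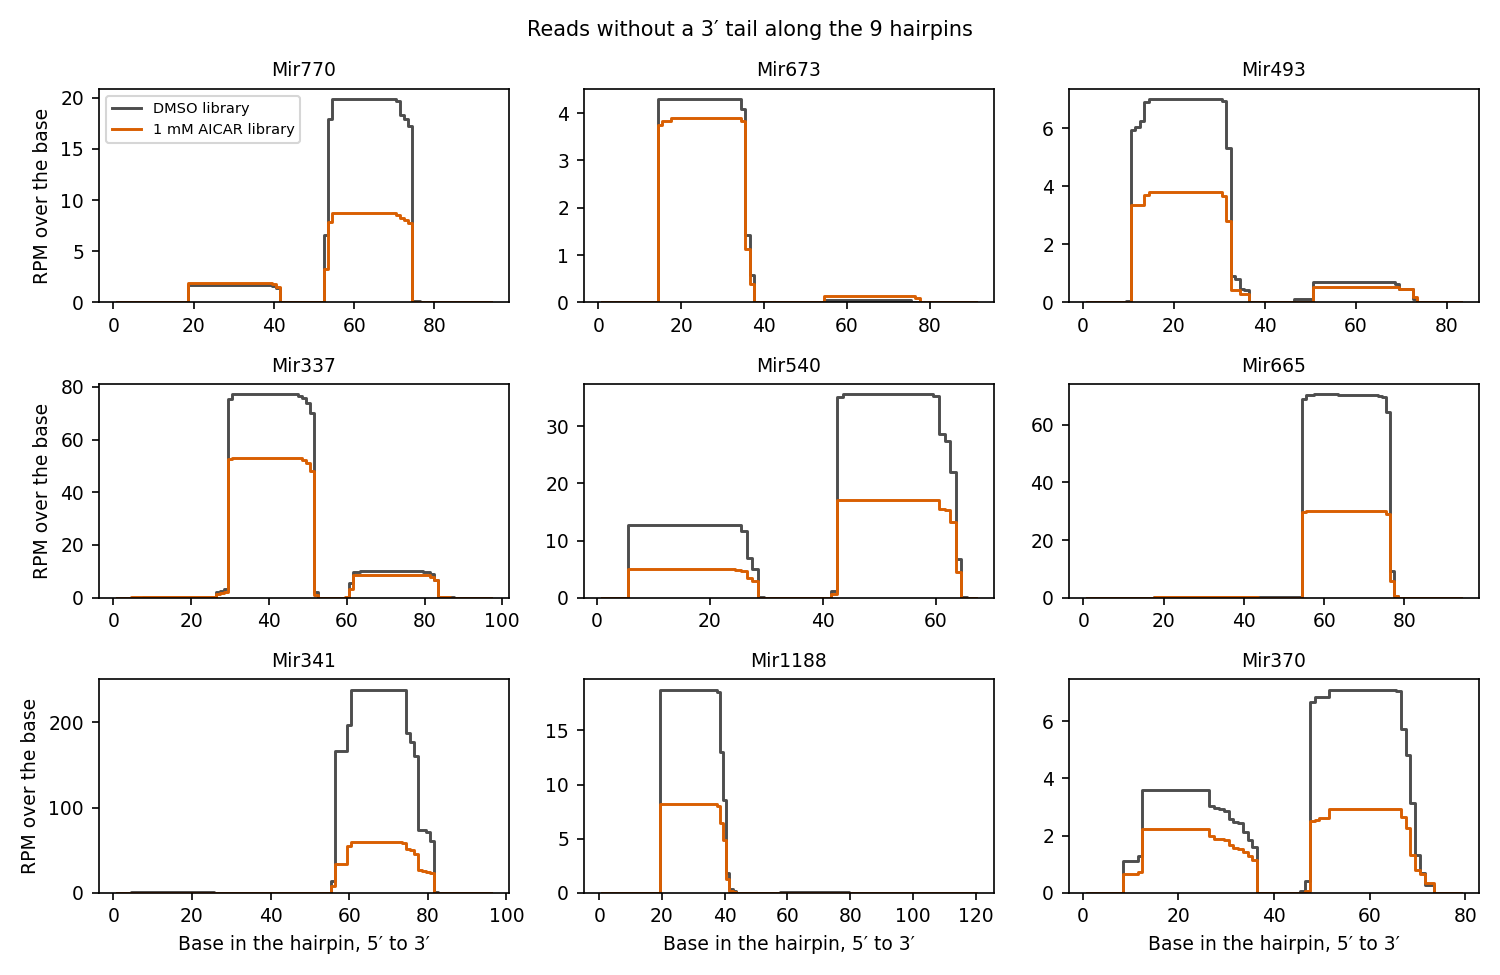
Level in RPM of clean reads (vertical axis, scale set for each hairpin) over every base of the 9 hairpins (horizontal axis, base number from the 5′ end), for reads that match the hairpin to their last base, in the DMSO (grey) and AICAR (orange) libraries. The AICAR line lies below the DMSO line over the main arm of each hairpin, by most at Mir341 and by least at Mir673.

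Mir770 gave mainly its 3p arm. MiR-770-3p had 375 reads with DMSO and 184 with AICAR, or 19.9 and 8.72 RPM, and was lower with AICAR at a fold of 0.439 (0.366 to 0.525). MiR-770-5p had 33 and 40 reads, or 1.75 and 1.90 RPM, a fold of 1.08 (0.667 to 1.77), and was the 1 arm of the 13 above 1. The 5p share was taken over reads that match the hairpin to their last base. It was 8.09% (95% Wilson interval 5.82% to 11.1%) with DMSO and 17.9% (13.4% to 23.4%) with AICAR. This difference had an adjusted p of 0.0020 by Fisher's exact test with Benjamini-Hochberg adjustment over 331 hairpins, and Mir770 was the 1 of the 9 hairpins past an adjusted p of 0.01. The background for such a change in arm usage was 21.5%, so 1 of 9 was not above it. With reads that carry added 3′ bases counted too, the 5p share of Mir770 was 2.97% (2.26% to 3.90%) with DMSO and 5.48% (4.37% to 6.86%) with AICAR.

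The intergenic hairpins between Meg3 and Rtl1 differed in how far their reads dropped. MiR-673-5p had 81 reads in each library, 4.29 RPM with DMSO and 3.84 with AICAR, and its fold of 0.895 (0.649 to 1.23) did not pass the test. MiR-493-5p had 118 and 71 reads, 6.25 and 3.37 RPM, and its fold of 0.538 (0.395 to 0.729) passed the p but not the fold threshold. MiR-337-5p was the second most abundant arm of the group with DMSO among reads that match the hairpin to their last base. It had 1422 and 1092 reads, 75.4 and 51.8 RPM, a fold of 0.687 (0.634 to 0.744). Its partner miR-337-3p had 190 and 182 reads, 10.1 and 8.63 RPM, with a fold of 0.857 (0.695 to 1.06) that did not pass the test.

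Both arms of Mir540 and the 3p arm of Mir665 were called lower, and these hairpins lie next to Mir337. MiR-540-5p had 241 reads with DMSO and 104 with AICAR, 12.8 and 4.93 RPM, a fold of 0.386 (0.304 to 0.488). MiR-540-3p had 672 and 361 reads, 35.6 and 17.1 RPM, a fold of 0.481 (0.422 to 0.547) whose interval spanned the threshold of 0.5. MiR-665-3p had 1329 and 632 reads, 70.4 and 29.97 RPM, a fold of 0.425 (0.386 to 0.468) with an adjusted p of 3.3e-74 by Fisher's exact test. The interval of miR-337-5p did not overlap those of miR-540-3p and miR-665-3p.

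Among reads that match the hairpin to their last base, the 3 hairpins in introns of Rian gave the most and the least abundant called arms. MiR-341-3p had 3137 reads with DMSO and 721 with AICAR, 166 and 34.2 RPM, and its fold of 0.206 (0.189 to 0.223) was the sixth lowest of the 508 arms. MiR-1188-5p had 354 and 172 reads, 18.8 and 8.16 RPM, a fold of 0.435 (0.360 to 0.523). MiR-370-3p had 129 and 55 reads, 6.84 and 2.61 RPM, a fold of 0.381 (0.273 to 0.527). MiR-370-5p had 47 and 33 reads, 2.49 and 1.56 RPM, and its fold of 0.628 (0.390 to 1.00) did not pass the test at an adjusted p of 0.0659 by Fisher's exact test.

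The levels were ordered by the reads that match the hairpin to their last base. With DMSO this order was miR-341-3p, miR-337-5p, miR-665-3p, miR-540-3p, miR-770-3p, miR-1188-5p, miR-540-5p, miR-337-3p, miR-370-3p, miR-493-5p, miR-673-5p, miR-370-5p and miR-770-5p. Levels of different miRNAs also carry differences in ligation and capture, so this is an order of reads. The 95% exact binomial intervals overlapped between miR-337-5p and miR-665-3p, between miR-770-3p and miR-1188-5p, between miR-540-5p and miR-337-3p, between miR-493-5p and each of its neighbours miR-370-3p and miR-673-5p, and between miR-370-5p and miR-770-5p. With AICAR, miR-337-5p was first in these reads at 51.8 RPM and miR-341-3p second at 34.2 RPM, where its interval overlapped that of miR-665-3p. The 5 arms under 1 RPM were miR-493-3p with 11 reads in each library, miR-341-5p with 13 and 3, miR-665-5p with 2 and 5, miR-673-3p with 1 and 3, and miR-1188-3p with 1 and 0. A count of 0 or below the floor of 3 reads stands for less than 0.159 RPM with DMSO and 0.142 RPM with AICAR.

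**Figure D2:**
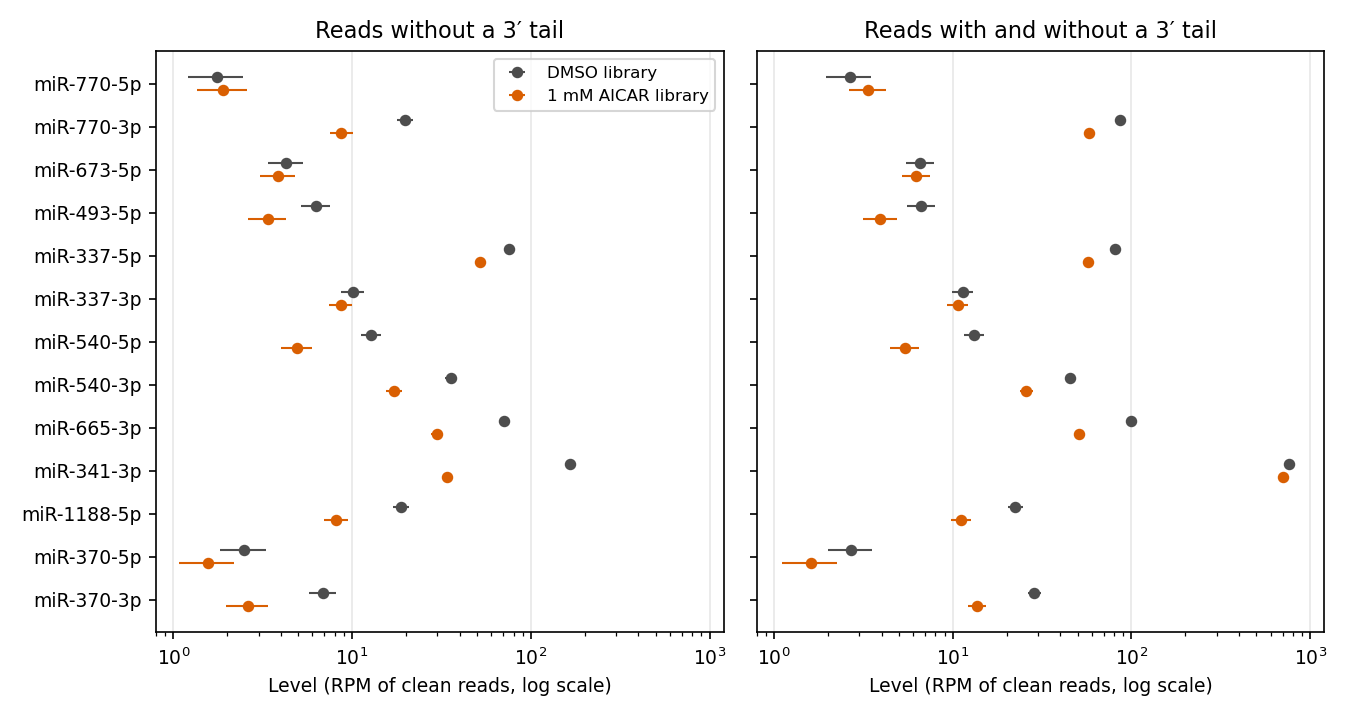
Level in RPM of clean reads (horizontal axis, log scale) of the 13 arms with at least 1 RPM in 1 library (vertical axis, in chromosomal order), counted from reads without a 3′ tail (left) and from reads with and without one (right), in the DMSO (grey) and AICAR (orange) libraries. Bars are 95% exact binomial intervals for counting error. Without tails miR-341-3p stands at 166 and 34.2 RPM, and with them at 762 and 704 RPM.

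Many more reads of these miRNAs ended in bases that the hairpin does not hold. Beside the tags above, tags were counted that matched a hairpin arm over at least their first 18 bases and then ended in 1 to 3 further bases that did not match, called 3′ tails here. This count was added after the data had been seen. Over the 13 arms, the tailed reads numbered 13916 with DMSO and 16347 with AICAR, against 8128 and 3728 untailed reads. Tailed reads thus made up 63.1% (62.5% to 63.8%) and 81.4% (80.9% to 82.0%) of the arms' reads, and 34.9% and 42.5% without miR-341-3p. The first added base was A or U in 99.0% of the tailed reads with DMSO and 99.5% with AICAR, compared with 91.3% and 94.3% over all arms.

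The sequences below are examples among the most-read tags of the 3 arms with tailed shares over 70% and of miR-665-3p, with the added bases in capitals. They show the tails on which the counts of the group turn. The untailed tag of miR-770-3p starts at hairpin base 54 and its tailed tags at base 55, so these also differ in their seed.
miR-341-3p, 1 U: ucggucgaucggucggucgguU
miR-341-3p, 1 A: ucggucgaucggucggucgguA
miR-341-3p, no tail: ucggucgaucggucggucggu
miR-770-3p, 1 U: ugggccugacguggagcuggU
miR-770-3p, 3 bases: ugggccugacguggagcuggUAU
miR-770-3p, no tail: gugggccugacguggagcugg
miR-370-3p, 2 A: gccugcugggguggaaccugguAA
miR-370-3p, A and U: gccugcugggguggaaccugguAU
miR-665-3p, no tail: accaggaggcugaggucccuua
miR-665-3p, 1 U: accaggaggcugaggucccuuaU

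Most reads of miR-341-3p were tailed. Its tag with 1 added U had 7805 reads with DMSO and 10223 with AICAR, or 414 and 485 RPM, a fold of 1.17 (1.14 to 1.21). The untailed tag of the same start and templated end had 1460 and 277 reads, or 77.4 and 13.1 RPM, a fold of 0.170 (0.149 to 0.193). In RPM of clean reads, the level of the tailed form was thus higher and that of the untailed form lower with AICAR. Tailed reads over all 500 arms also rose, from 258370 to 425696, and hairpins took 11.6% and 15.7% of the clean reads. Scaling to miRNA reads, which moves every log2 fold by -0.45, was not applied to these single tags. In all, tailed reads of miR-341-3p numbered 11240 and 14123, a fold of 1.12 (1.10 to 1.15), and were 78.2% (77.5% to 78.8%) of its reads with DMSO and 95.1% (94.8% to 95.5%) with AICAR. By tailed share miR-341-3p ranked 6 of 500 arms with DMSO and 3 of 500 with AICAR. Tailed and untailed reads together came to 14377 and 14844, or 762 and 704 RPM, a fold of 0.924 (0.903 to 0.945).

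The kinds of tail on miR-341-3p did not all move the same way. Tails that began with U went from 471 to 573 RPM (fold 1.22, 1.18 to 1.25), whereas tails that began with A went from 119 to 94.8 RPM (fold 0.796, 0.749 to 0.845). The tag with 2 added U had 662 and 1216 reads, a fold of 1.64 (1.49 to 1.80). In each library more than 99% of the tails followed hairpin base 77, with 11142 and 14011 reads. The next base of the hairpin is C, and 1394 untailed reads with DMSO and 558 with AICAR ran over this base without a mismatch. All but 36 and 32 of these started elsewhere in the repeat than base 57.

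The 3p reads of Mir341 started at several places in the repeat. Without a tail, tags from hairpin base 57, the RefSeq start, had 2884 and 555 reads (fold 0.172, 0.157 to 0.189), and tags from base 61 had 778 and 98 (fold 0.113, 0.0903 to 0.139). Tags from base 60 had 579 and 428 reads (fold 0.661, 0.582 to 0.751), and tags from base 56 had 252 and 164 (fold 0.582, 0.475 to 0.712). The untailed starts therefore differed, and the intervals at bases 60 and 56 did not overlap those at 57 and 61. Tailed tags from base 57 had 11000 and 13839 reads, from base 61 249 and 269, from base 56 238 and 283, and from base 60 42 and 38. With tails counted, the fold was 0.928 (0.9061 to 0.9495) at base 57, 0.816 (0.716 to 0.930) at base 56, 0.671 (0.594 to 0.758) at base 60 and 0.320 (0.283 to 0.361) at base 61. Base 57 was thus among the starts with the lowest folds without tails and had the fold nearest to 1 with them.

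**Figure D3:**
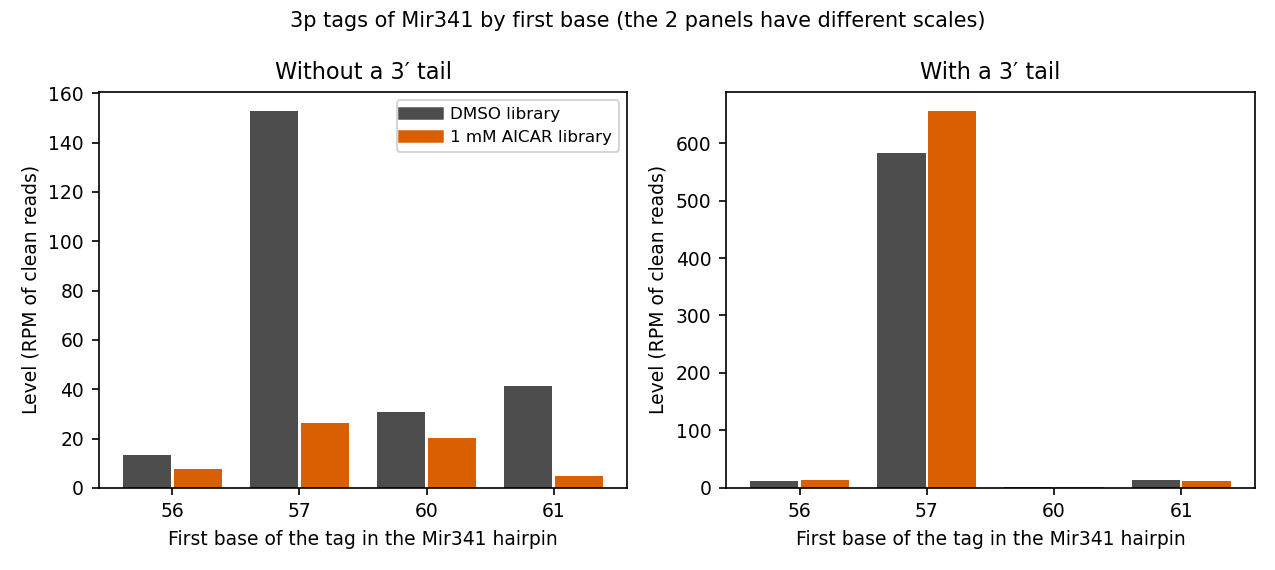
Level in RPM of clean reads (vertical axes, of different scale) of the 3p tags of Mir341 by their first base in the hairpin (horizontal axes), without a 3′ tail (left) and with one (right), in the DMSO (grey) and AICAR (orange) libraries. Bars are single libraries with no error. At base 57 the untailed level goes from 153 to 26.3 RPM and the tailed level from 583 to 656 RPM.

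The other highly tailed arms were miR-770-3p and miR-370-3p. Tailed reads of miR-770-3p numbered 1258 with DMSO and 1040 with AICAR, which was 77.0% (74.9% to 79.0%) and 85.0% (82.9% to 86.9%) of its reads. The tail began with U in 92.9% and 93.8% of them. Tails of 1 base had 353 and 182 reads (fold 0.461, 0.384 to 0.553) and tails of 3 bases 492 and 557 (fold 1.01, 0.896 to 1.15), so longer tails took a larger share with AICAR. Of these tails 92.8% and 92.4% followed hairpin base 74, and 2 reads with DMSO and 1 with AICAR matched the hairpin's G at the next base. For this arm an added U and a base of the J1 genome that differs from the reference therefore cannot be told apart from these tags.

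MiR-370-3p carried 411 tailed reads with DMSO and 235 with AICAR, 76.1% (72.3% to 79.5%) and 81.0% (76.1% to 85.1%) of its reads. Here the first added base was A in 96.4% and 97.9%. The tag with 2 added A had 163 and 63 reads (fold 0.346, 0.254 to 0.466) and the one with A and U 80 and 76 (fold 0.850, 0.613 to 1.18). The share did not differ past the threshold, with an adjusted p of 0.290 by Fisher's exact test. Most tails followed hairpin base 69, and 25 and 17 untailed reads matched the U that the hairpin has next.

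Tails were less common on the neighbours Mir665 and Mir540, and took a larger share there with AICAR. MiR-665-3p had 553 and 445 tailed reads, 29.4% (27.4% to 31.5%) and 41.3% (38.4% to 44.3%) of its reads, mostly 1 U. MiR-540-3p had 181 and 183, 21.2% (18.6% to 24.1%) and 33.6% (29.8% to 37.7%). The shares of miR-337-5p, 6.57% and 9.23%, and of miR-540-5p, 2.82% and 8.77%, lay below the medians of all arms, 8.10% and 10.5%, and their difference did not pass an adjusted p of 0.01.

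Across the group, the tailed share was higher with AICAR in 12 of the 13 arms, all but miR-370-5p with 4 and 1 tailed reads. It was also higher in 354 of all 500 arms with at least 10 reads in each library, which is 70.8%. The adjusted p was at most 0.01 for a higher share in 4 of the 13, miR-341-3p, miR-770-3p, miR-665-3p and miR-540-3p, against a background of 18.4%. The median tailed share of the 13 arms was 21.2% with DMSO and 33.6% with AICAR, and that of all 500 arms was 8.10% and 10.5%. How the bases came to the 3′ ends was not tested.

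**Figure D4:**
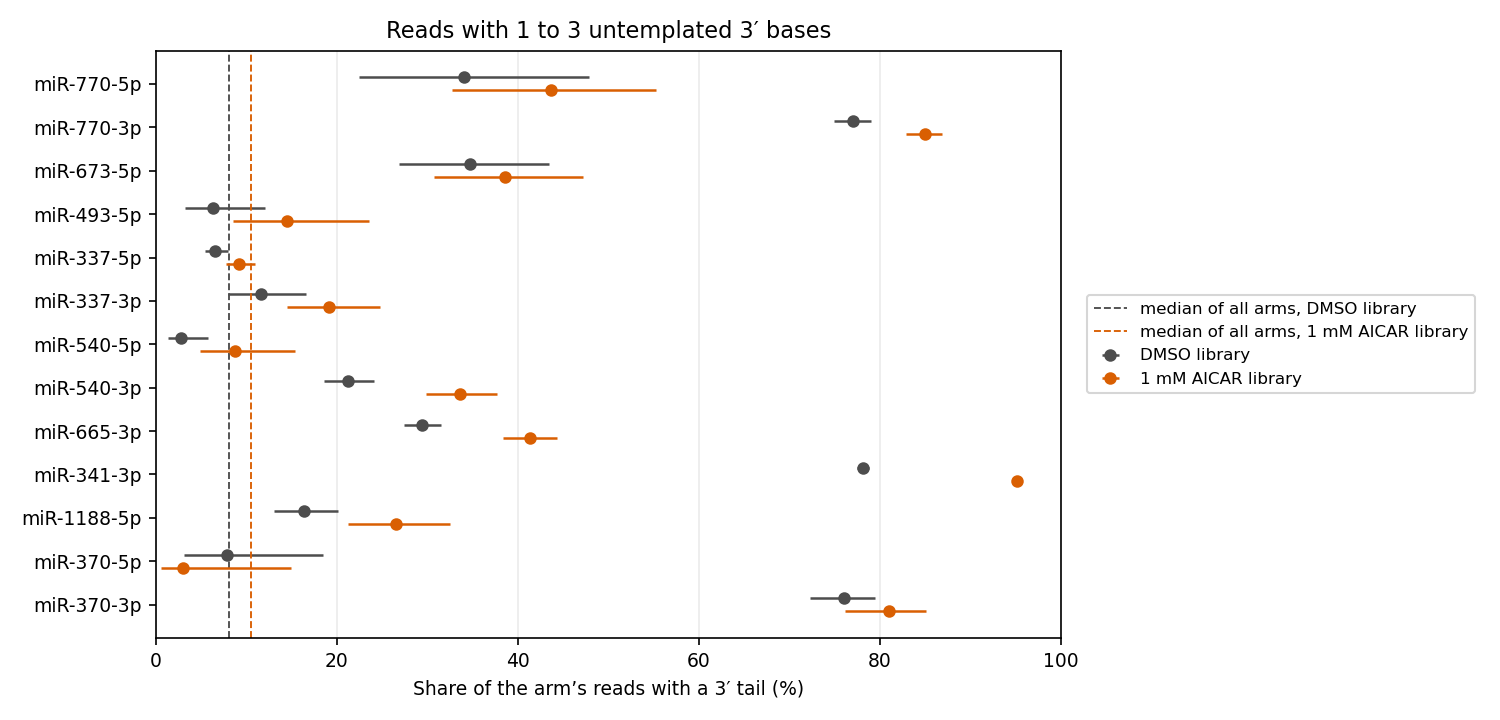
Share of each arm's reads that end in 1 to 3 bases not matching the hairpin, in percent (horizontal axis), for the 13 arms (vertical axis) in the DMSO (grey) and AICAR (orange) libraries. Bars are 95% Wilson intervals, and dashed lines are the medians of all 500 arms, at 8.10% and 10.5%. MiR-341-3p, miR-770-3p and miR-370-3p lie above 70% in both libraries.

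Counting the tailed reads changed which arms were called. With them, 14 of the 18 arms reached 1 RPM and 3 of the 14 were called lower, miR-540-5p, miR-1188-5p and miR-370-3p, and 0 higher, against backgrounds of 7.08% and 12.9% of 551 arms. The call was lost from 4 of the 7 arms called without tails, miR-341-3p, miR-770-3p, miR-665-3p and miR-540-3p. The fold of miR-770-3p with tails was 0.671 (0.622 to 0.723), that of miR-665-3p 0.512 (0.475 to 0.552) and that of miR-540-3p 0.571 (0.511 to 0.636). MiR-540-5p stood at 0.411 (0.327 to 0.515), miR-1188-5p at 0.495 (0.420 to 0.582) and miR-370-3p at 0.480 (0.415 to 0.555), so that all 3 intervals reached above 0.5. The added arm miR-493-3p had 17 and 28 reads (fold 1.47, 0.779 to 2.87). The fold was below 1 in 12 of the 14, with a median of 0.632 against 1.18 for all 551 arms.

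**Figure D5:**
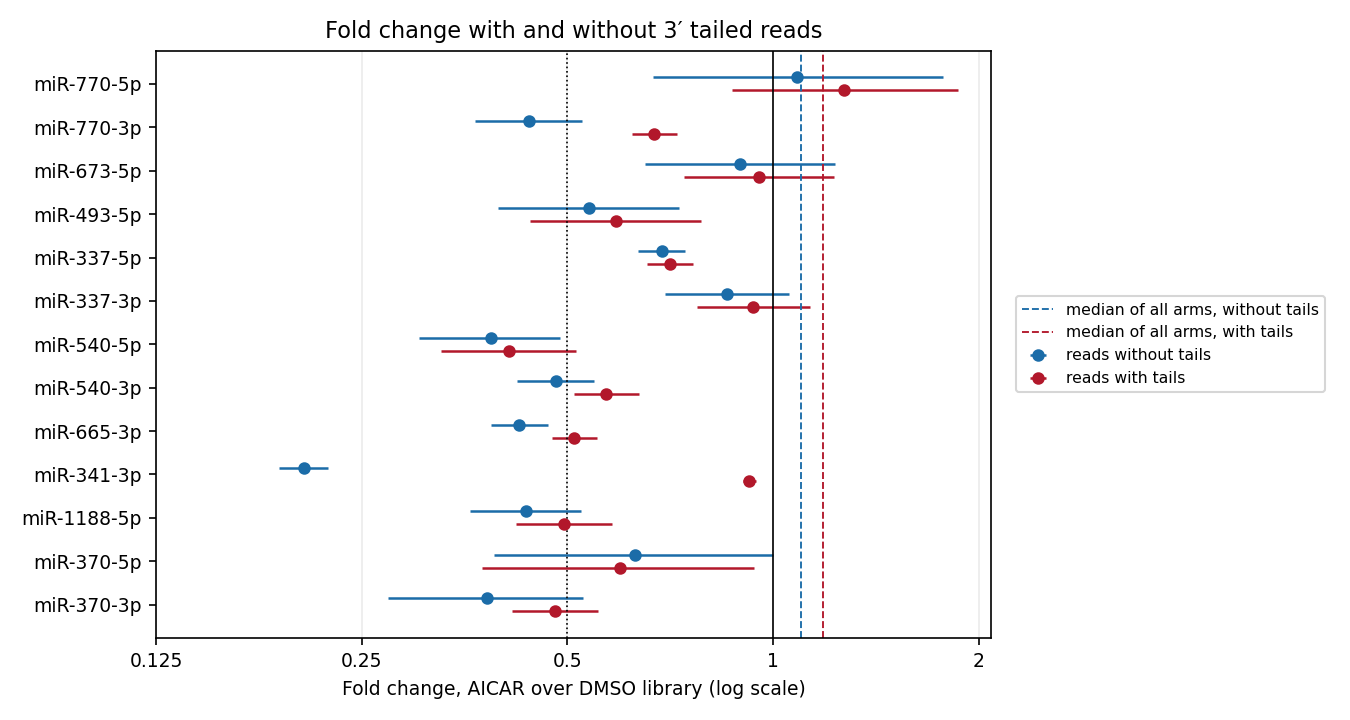
Fold change of each arm, AICAR over DMSO library (horizontal axis, log scale), from reads without 3′ tails (blue) and from reads with and without them (red), with 95% exact binomial intervals for counting error. Solid and dotted lines mark 1 and 0.5, and dashed lines the medians of all arms. MiR-341-3p moves from 0.206 to 0.924 when tailed reads are counted, and miR-337-5p from 0.687 to 0.707.

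Summed over the 9 hairpins, reads with and without tails came to 23837 with DMSO and 21027 with AICAR, 1263 and 997 RPM, a fold of 0.789 (0.775 to 0.804). Without Mir341 this sum had a fold of 0.613 (0.592 to 0.635). The direction of the group's sum was thus the same in each count, and its size depended on the tails of miR-341-3p.

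Short tags were a second difference at the 3′ ends. Untailed tags shorter than 21 bases made up 25.2% (24.3% to 26.2%) of the reads on the 18 arms with DMSO and 12.6% (11.5% to 13.7%) with AICAR, and 12.9% and 7.23% without miR-341-3p. Over all hairpins the shares were 9.49% and 3.81%. With tailed reads counted, the shares on the 18 arms were 9.46% and 2.45%, and with up to 1 mismatch allowed 10.7% and 2.88%, so the lower share with AICAR was found in each count. MiR-341-3p lost most, from 1413 short reads to 252, with its tag of 18 bases at 940 and 154 reads. MiR-540-3p had 256 and 80 short reads, and its share of them was 38.1% and 22.2%. MiR-1188-5p had the highest share, 54.2% (49.0% to 59.4%) with DMSO and 40.7% (33.6% to 48.2%) with AICAR. By Fisher's exact test the adjusted p was at most 0.01 for a lower share in 2 of the 13 arms, miR-341-3p and miR-540-3p, against a background of 23.7%. With tags of at least 21 bases alone, the fold of miR-540-3p was 0.604 (0.518 to 0.705), that of miR-1188-5p 0.563 (0.435 to 0.726), and that of miR-341-3p 0.243 (0.219 to 0.270).

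The 5′ ends, which set the seed, were stable on most arms in untailed reads. Untailed reads of miR-337-5p, miR-540-5p, miR-540-3p, miR-665-3p and miR-1188-5p began at their main start in 95.5% to 100% of cases in both libraries. MiR-337-3p began at hairpin base 62 in 44.2% (37.3% to 51.3%) of its untailed reads with DMSO and 61.5% (54.3% to 68.3%) with AICAR. The rest began mostly at base 61, 1 base upstream. MiR-341-3p began at base 57 in 91.9% (90.9% to 92.8%) and 77.0% (73.8% to 79.9%) of its untailed reads, which do not include the tags from bases 60 and 61. Over all 4 starts, base 57 held 64.2% (62.8% to 65.6%) and 44.6% (41.8% to 47.4%) of the untailed reads, but 86.7% (86.1% to 87.2%) and 91.8% (91.4% to 92.3%) with tailed reads counted, so the direction of this difference turned with the tails. Of the 8 arms with at least 100 untailed reads in each library, 2 passed an adjusted p of 0.01 by Fisher's exact test. These were miR-337-3p and miR-341-3p, against a background of 13%. MiR-770-3p began at base 54 in 56.8% (51.7% to 61.7%) of its untailed reads with DMSO and 52.2% (45.0% to 59.3%) with AICAR. It also used base 55 and the RefSeq start at 53, each of which moves the seed by 1 base. Its tailed tags printed above began at base 55. Reads labelled miR-341-5p here began at hairpin base 5 rather than at the RefSeq start, base 22, and the RefSeq sequence itself had 0 reads.

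The neighbouring groups of the same region were also lower in sum. The 6 anti-Rtl1 hairpins, which include Mir127 and lie antisense to Rtl1, held 2207 RPM with DMSO and 1739 with AICAR (fold 0.788, 0.777 to 0.799), with 2 of 10 arms called lower, 1 called higher and a median fold of 0.599. The 38 Mirg hairpins held 6430 and 3689 RPM (fold 0.574, 0.569 to 0.579), with 17 of 56 arms called lower, 0 higher and a median of 0.610. The 13 arms of the Meg3 and Rian hairpins had a lower median, 0.481, without tails. With tails the medians of the same arms were 0.596 here, 0.659 in the anti-Rtl1 group and 0.627 in the Mirg group. The summed folds with tails were 0.789 (0.775 to 0.804) here, 0.867 (0.857 to 0.877) in the anti-Rtl1 group and 0.593 (0.588 to 0.599) in the Mirg group. The sum of this group was thus lower than that of the Mirg group without tails and higher with them. A difference between the groups was not tested.

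Fragments of the host transcripts outside the hairpins were scarce. Tags that matched exons of Meg3 alone had 13 reads with DMSO and 8 with AICAR, a fold of 0.551 (0.198 to 1.43) that did not pass Fisher's exact test (p of 0.195). Tags of Rian had 96 and 63 reads, 5.09 and 2.99 RPM, a fold of 0.587 (0.420 to 0.815) with a p of 0.0011 by the same exact test. The libraries were made from RNA selected for small size, so these reads are no measure of the level of the long transcripts.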

How the data were processed

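Small RNA of J1 ES cells was sequenced from 1 DMSO and 1 AICAR sample. The authors size-selected the RNA, trimmed and filtered the reads, collapsed identical clean reads of at least 18 nt and deposited the counts of each tag with its length and sequence, neither normalized nor aligned. The submitters' notes name build mm9, which was not used here. Coordinates are GRCm38.

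Tags were matched without mismatch to GENCODE vM21 hairpins. On each arm the tag with the most reads was the reference, and tags starting within 2 nt and ending within 4 nt of it were counted. Levels are reads per 1000000 clean reads (RPM). Arms with at least 1 RPM in 1 library were tested by two-sided Fisher's exact test, with Benjamini-Hochberg adjustment over all arms. Arm usage, 5′ ends and short tags were likewise adjusted over all arms or hairpins with enough reads, in place of the 9 hairpins alone. Folds carry 95% exact binomial and shares 95% Wilson intervals. PCR reads are not independent molecules, so intervals cover counting error only. Tails were an exact prefix of at least 18 nt plus 1 to 3 untemplated bases. Every arm of the 9 hairpins with at least 1 RPM is named, and the others are given by their reads. The members, lists and tests were chosen with earlier results of these data known.

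Alternatives covered the denominator, the rule for tags, filters and thresholds. No genome sequence was used here, so matches to the genome were replaced by matches to annotated transcripts. Hairpin matching, tails of 1 base and the calls by fold and p were tested on simulated data, and the other steps were not. Python 3.11.15, numpy 2.4.6, scipy 1.17.1, matplotlib 3.10.9, R 4.3.3 and edgeR 4.0.16 were used.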

Additional observations from a re-analysis of the deposited data

How the results depend on the processing

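No paired analysis was possible because each condition had 1 library. The 7 arms called lower became 3 with reads identical to the reference tag, 4 with up to 1 mismatch (also 4 when tags matching another transcript were left out), 3 with 3′ tails and 1 under edgeR's exact test with an assumed coefficient of variation of 0.4, where 5 of all 508 arms were lower. The other settings gave 5 to 9, and 0 arms were called higher in any. The background of arms called lower was 9.45% of 508 in the main count and 7.08% of 551 with tails. For the other tag rules, scalings and filters it was not counted, so their counts cannot be set against it. The median log2 fold change of -1.06 became -1.50 relative to miRNA reads, -0.82 with identical tags, -0.83 with tags of at least 21 nt, -0.76 with up to 1 mismatch, with or without the transcript filter, and -0.66 with tails. The summed fold of 0.404 became 0.755 with 1 mismatch and the transcript filter, 0.789 with tails, 0.543 without Mir341 and 0.613 without Mir341 but with tails. A 1-base tail is also a mismatch to the hairpin, so these counts share reads. Arm usage changed at Mir770 alone in each setting run.

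Scaling to miRNA reads moved every log2 fold by -0.45 and median-ratio scaling by -0.13. MiR-770-5p then stood at 0.796 and 0.988, below 1. With identical tags miR-673-5p stood at 1.00 and miR-337-3p at 1.24, and miR-337-3p at 1.19 with the main 5′ end only. Of 156 values for single arms under alternatives, 132 kept their direction and side of the threshold. The tail, transcript filter and Mir341 settings were added after the data had been seen. The settings that need a genome sequence were not run. With 1 library per condition no spread between cultures could be estimated, so each call rests on counting error alone.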
